A study of Mus musculus with 9 samples.

Results

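FSTL1, its proposed receptors and the relatives of one of them make up a group of 9 genes whose liver transcripts are described here: Fstl1, Dip2a, Dip2b, Dip2c, Tlr4, Cd14, Bmpr1a, Bmpr2 and Eng. They were chosen by gene symbol, as the ligand and the receptors or DIP2 proteins said to bind it. That rule used no measured value, but earlier results of these data were known when it was set. All 9 were among the 24008 genes listed in the deposited table, and all 9 had enough reads to be tested, as did 14379 genes in all. The RNA came from whole pieces of liver, with 1 library from each of 9 mice and 3 mice in each group.

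Every mouse was fed a high fat and high carbohydrate diet that produces non-alcoholic steatohepatitis (NASH), a fatty liver disease with inflammation and fibrosis. The Flox group, which the labels call WT, carried Irf4 alleles flanked by loxP sites without the deletion. F4MKO mice lacked the transcription factor IRF4 in skeletal muscle, where a Myl-Cre transgene on the C57BL/6J background removed it, so their livers kept the gene. F4MKO+FSTL1 mice had the same deletion and received an adeno-associated virus (AAV8) with a Flag-tagged FSTL1 under the muscle creatine kinase (MCK) promoter, injected into the gastrocnemius muscle. According to the methods, the other groups received AAV-GFP, which the labels do not name, and livers were taken 4 weeks after injection. The diet before injection lasted 24 weeks in one part of the methods and 12 weeks in another. Sex and age of the sequenced mice are not in the labels, and the reporting summary describes males of 8 weeks, without saying at which point. The same summary also says that mice of both sexes were used in the experiments.

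FSTL1 is a secreted glycoprotein of the follistatin and SPARC family that is made mainly by fibroblast-like cells, and muscle also releases it. DIP2A is a surface protein reported to bind it, while CD14 passes lipopolysaccharide to TLR4, the receptor through which bacterial products start innate immune signalling. BMPR1A and BMPR2 are the type I and type II kinase receptors of bone morphogenetic proteins, and endoglin, the product of Eng, is an endothelial co-receptor of the same family.

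Totals ran from 22900737 to 23896946 counted reads in Flox, from 23265774 to 24322984 in F4MKO and from 20656976 to 22891868 in F4MKO+FSTL1 libraries. Levels below are in CPM, the reads of a gene after TMM scaling of all libraries to a common total, given as mean ± SD (n = 3), and a gene was called at an adjusted p under 0.05 with a fold change above 1.5. Irf4 itself does not check the muscle deletion in liver. Its counts were 131, 132 and 101 in Flox, 120, 128 and 130 in F4MKO, and 10, 92 and 116 in F4MKO+FSTL1. The first F4MKO+FSTL1 library thus stood far below the other 8 libraries for Irf4, and the calls or counts that change without it are given beside their results. Counts per gene also cannot tell reads of the FSTL1 transgene from those of the liver's own Fstl1. No liver measurement here therefore checks the labels F4MKO and F4MKO+FSTL1, although the direction of every comparison rests on them. Liver Fstl1, collagen genes and several macrophage genes were highest in the libraries labelled F4MKO and lowest in those labelled F4MKO+FSTL1, and every group name below means the libraries with that label. Mean Col1a1 levels, for instance, were 14.9 CPM in Flox, 39.8 in F4MKO and 8.34 in F4MKO+FSTL1. The paper reports the opposite direction, by quantitative PCR for fibrosis genes, Col1a1 among them, and by staining for macrophages. Both were lower in its F4MKO livers and were restored with AAV-FSTL1. Hepatocyte markers were abundant in every library, and the skeletal muscle list was close to empty, with 1 of its 7 listed genes passing the filter and summed levels of 0.918 to 1.72 CPM.

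The starts of Fstl1 and Dip2a are shown because these genes are the ligand and its proposed receptor in the DIP2 family. The windows reach from 250 bases before to 50 bases after the RefSeq start on GRCm38.p6, are written 5′ to 3′ on the gene's own strand, and have the GC box GGGCGG, read on either strand, in capitals.
Fstl1, chr16:37776805-37777104, plus strand: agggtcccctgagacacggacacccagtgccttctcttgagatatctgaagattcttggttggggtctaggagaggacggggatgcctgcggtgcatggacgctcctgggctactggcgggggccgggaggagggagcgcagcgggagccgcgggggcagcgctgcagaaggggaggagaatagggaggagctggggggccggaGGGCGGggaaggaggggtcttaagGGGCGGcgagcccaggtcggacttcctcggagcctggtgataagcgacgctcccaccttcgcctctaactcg
Dip2a, chr10:76345242-76345541, minus strand: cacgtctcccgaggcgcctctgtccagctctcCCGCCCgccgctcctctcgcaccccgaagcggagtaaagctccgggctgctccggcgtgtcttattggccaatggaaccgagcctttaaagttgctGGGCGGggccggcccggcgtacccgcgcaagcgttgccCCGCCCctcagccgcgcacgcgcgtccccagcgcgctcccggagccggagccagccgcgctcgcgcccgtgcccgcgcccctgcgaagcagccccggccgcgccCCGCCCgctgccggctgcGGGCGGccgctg
The Fstl1 window had 66.7% G and C, 21 CpG dinucleotides and 2 GC boxes, and the Dip2a window had 76.7%, 47 and 5. Over 32851 windows of the same length the medians were 52.7% and 7 CpG, and 35.7% held a GC box. Windows were found for 7 of the 9 genes, with 2 for Dip2b, and a GC box was present in 6 of these 8 windows. A core of the interferon-stimulated response element (GAAANNGAA, both strands), a form of the site that IRF proteins bind, was in 0 of the 8 windows and in 8.56% of all windows. AP-1 sites (TGANTCA) and TATA boxes (TATAAA) were likewise in 0 of 8, against 7.81% and 13.6% of all windows. Such matches describe letters in these windows only. The IRF4 binding sites that the paper reports in the Fstl1 promoter lie further upstream than the window reaches, and were not examined here.

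Per kilobase of the longest annotated transcript, the scale on which genes can be set side by side, endoglin was by far the most abundant of the 9 in Flox livers, at 28.4 ± 2.35 CPM per kb. Bmpr1a (5.28 ± 0.18), Cd14 (4.41 ± 0.71) and Bmpr2 (2.84 ± 0.10) followed. The ligand Fstl1 stood at 1.79 ± 0.20 and Dip2c at 1.43 ± 0.17 CPM per kb. Tlr4 (0.853 ± 0.15), Dip2a (0.714 ± 0.21) and Dip2b (0.631 ± 0.12) were lowest, and the ranges of neighbours overlapped for Tlr4 with Dip2a and for Dip2a with Dip2b, so that these did not differ beyond their spread. In F4MKO livers Cd14 stood above Bmpr1a, at 7.58 against 5.53 CPM per kb, and their ranges did not overlap. Fstl1 stood at 3.28, next to Bmpr2 at 2.77, with overlapping ranges. In F4MKO+FSTL1 livers Cd14 (2.65) stood below Bmpr2 (3.04) and Fstl1 (1.13) below Dip2c (1.48), both with overlapping ranges. The rank of a gene among the 9 depends on the transcript length used. For some genes short annotated transcripts set the median length, as for Fstl1, at 631.5 bases against 3789 for its longest transcript. With the median length Bmpr1a stood above Cd14 in F4MKO (24.5 against 9.92 CPM per kb) and Fstl1 above Dip2c in F4MKO+FSTL1 (6.80 against 2.46), and the levels of all 9 are given in the closing section.

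**Figure D1:**
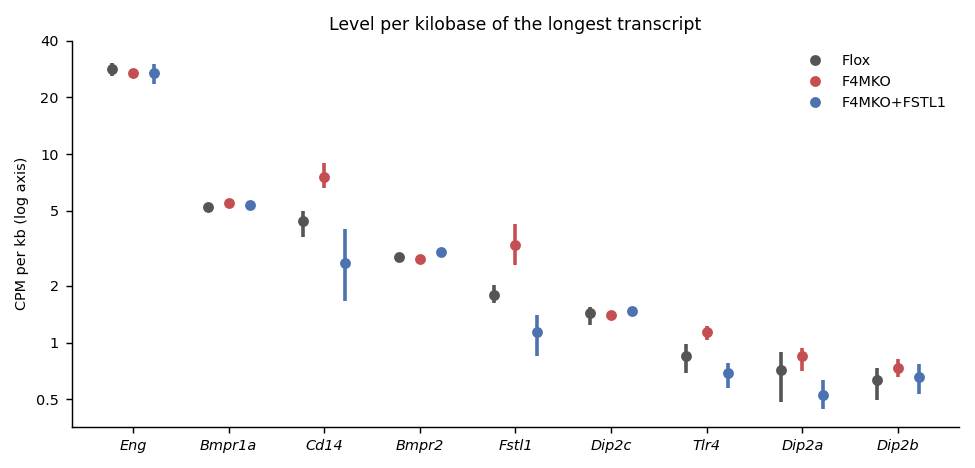
Level of each gene in CPM per kilobase of its longest transcript (log axis) in Flox, F4MKO and F4MKO+FSTL1 livers, with points for the mean of 3 mice and bars for the lowest and highest mouse. Eng lies above the rest in each group, and Cd14 and Fstl1 shift more between groups than Bmpr1a, Bmpr2 or Dip2c.

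Fstl1, the ligand (chr16:37776873-37836514, GRCm38, plus strand), had its highest liver level in the libraries labelled F4MKO and its lowest in those labelled F4MKO+FSTL1. It was counted 138, 186 and 147 times in Flox, 456, 234 and 284 times in F4MKO, and 114, 67 and 83 times in F4MKO+FSTL1 livers. The 3 groups did not overlap after scaling: every F4MKO liver lay above every Flox liver, and every F4MKO+FSTL1 liver lay below both. Levels were 6.77 ± 0.76 CPM in Flox, 12.4 ± 3.30 in F4MKO and 4.29 ± 1.05 in F4MKO+FSTL1. By quantitative PCR the paper reports the Fstl1 mRNA of the liver as unchanged after the AAV injection. Fstl1 fell 2.89-fold in F4MKO+FSTL1 compared with F4MKO, a log2 fold change of -1.53 (SE 0.22, 95% interval -2.02 to -1.05) with a Benjamini-Hochberg adjusted p of 0.00171 in edgeR's quasi-likelihood test. This call held in all 9 fits that left out 1 library, with log2 fold changes from -1.72 (without the first F4MKO+FSTL1 library) to -1.30. Between F4MKO and Flox the log2 fold change was 0.88 (SE 0.21, interval 0.42 to 1.34), and the edgeR adjusted p of 0.0864 did not pass. DESeq2 gave an adjusted p of 0.0107 for the same difference. F4MKO+FSTL1 and Flox differed by -0.66 (SE 0.22, interval -1.15 to -0.16) with an edgeR adjusted p of 0.234, and by -0.84 without the first F4MKO+FSTL1 library. The first F4MKO library held the most Fstl1 reads, and without it the log2 fold change from Flox was 0.64. F4MKO compared with Flox and F4MKO+FSTL1 compared with F4MKO share the 3 F4MKO libraries, here and for every gene below.

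**Figure D2:**
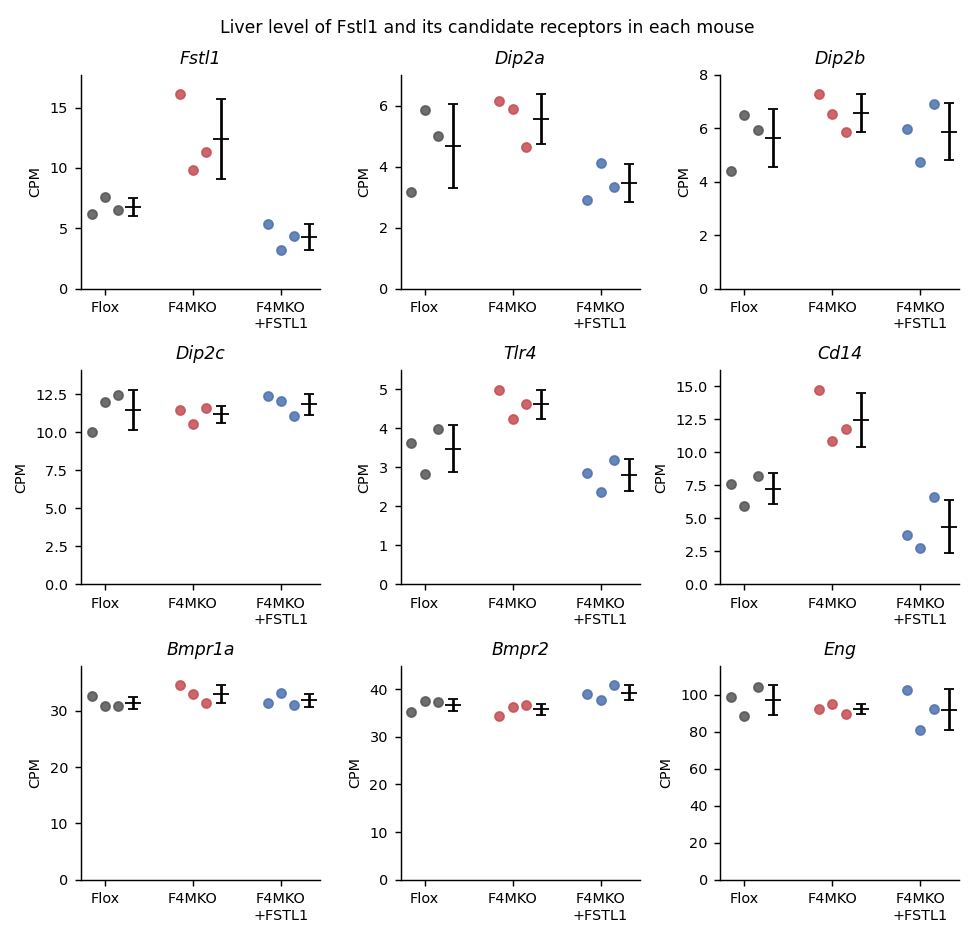
Level of each of the 9 genes in CPM after TMM scaling in each mouse (points, replicates 1 to 3 from left to right), with the mean and SD of 3 mice as black bars and axes starting at 0. The 3 groups are apart for Fstl1, and for Cd14 and Tlr4 each F4MKO mouse lies above each mouse of the other groups, while Bmpr1a, Bmpr2, Eng and Dip2c lie close together.

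Of the DIP2 proteins, which carry DMAP1-binding and AMP-binding domains, Dip2a is the one proposed as an FSTL1 receptor, and Dip2b and Dip2c are its paralogs. Dip2a reads numbered 71, 143 and 113 in Flox, 174, 141 and 116 in F4MKO, and 62, 86 and 64 in F4MKO+FSTL1 livers. All 3 F4MKO livers lay above all 3 F4MKO+FSTL1 livers, and the Flox livers overlapped both groups. Mean levels were 4.68 ± 1.38, 5.56 ± 0.82 and 3.46 ± 0.63 CPM. Its log2 fold change of -0.69 between F4MKO+FSTL1 and F4MKO (SE 0.24, interval -1.20 to -0.17) had an unadjusted p of 0.0139 and an adjusted p of 0.0601 in the edgeR test, just above the threshold. DESeq2 gave an adjusted p of 0.0481 and a log2 fold change of -0.67, so the call depends on the tool. Leaving out each library in turn, the log2 fold change ranged from -0.83 to -0.57 (the latter without the first F4MKO+FSTL1 library) and the edgeR adjusted p from 0.0296 to 0.175, with a call without the first Flox or the third F4MKO library. Against Flox, Dip2a differed by 0.25 in F4MKO (interval -0.25 to 0.75, adjusted p = 0.619, edgeR) and by -0.44 in F4MKO+FSTL1 (interval -0.96 to 0.09, adjusted p = 0.474, edgeR). Leaving out 1 library moved the first from 0.031 (without the first Flox library) to 0.44 and the second from -0.65 (without the first Flox library) to -0.24.

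The paralogs were not called in any comparison. Dip2b was counted 99, 159 and 134 times in Flox, 206, 156 and 147 times in F4MKO, and 128, 99 and 132 times in F4MKO+FSTL1 livers. Its groups overlapped throughout, and the log2 fold change between F4MKO+FSTL1 and F4MKO was -0.16 (interval -0.57 to 0.25, adjusted p = 0.573, edgeR). Dip2c, at 11.5 ± 1.32, 11.2 ± 0.56 and 11.8 ± 0.68 CPM in the 3 groups, had a log2 fold change of 0.08 in the same comparison (interval -0.18 to 0.34, adjusted p = 0.661, edgeR), which became -0.12 when libraries were scaled by their totals alone. Its counts were 224, 293 and 281 in Flox, 324, 252 and 290 in F4MKO, and 265, 251 and 212 in F4MKO+FSTL1 livers. Within the summed DIP2 level per kilobase of the longest transcripts, Dip2a made up 21.7% to 28.7% in Flox, 25.2% to 30.6% in F4MKO and 16.6% to 23.6% in F4MKO+FSTL1 libraries. On this scale Dip2c made up 44.6% to 58.1%. With the median transcript length it made up 17.0% to 24.8%, Dip2b 63.2% to 73.9% and Dip2a 7.41% to 13.6%, so that the order within the family depends on the length used. The large Dip2b share on that scale rests on short annotated transcripts, with a median of 743 bases against 8914 for the longest. A test of whether Dip2a differed more than its paralogs was not made. Reads that could map to several DIP2 genes were handled in a way not given in the sources used here.

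TLR4 and CD14 are found mostly on macrophages and monocytes, and in liver on Kupffer cells, with lower levels on other cells. Cd14 was counted 171, 145 and 184 times in Flox, 417, 259 and 294 times in F4MKO, and 80, 57 and 126 times in F4MKO+FSTL1 livers. Each F4MKO liver exceeded each liver of the other groups, and the third F4MKO+FSTL1 liver reached into the Flox range. Levels were 7.24 ± 1.16, 12.4 ± 2.05 and 4.35 ± 1.99 CPM. Cd14 fell 2.87-fold in F4MKO+FSTL1 compared with F4MKO, by 1.52 on the log2 scale (SE 0.27, interval -2.11 to -0.94, adjusted p = 0.00346, edgeR). The fall was larger without the third F4MKO+FSTL1 library (log2 fold change -1.93) and was -1.42 without the first, and it was called in all 9 fits that left out 1 library, with values up to -1.27. In F4MKO compared with Flox the log2 fold change was 0.78 (SE 0.25, interval 0.23 to 1.34), with an edgeR adjusted p of 0.162. F4MKO+FSTL1 compared with Flox gave -0.74 (SE 0.27, adjusted p = 0.262, edgeR), and -1.15 with an adjusted p of 0.0419 when the third F4MKO+FSTL1 library was left out.

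Tlr4 differed in the same directions as Cd14, by less. It was counted 81, 69 and 90 times in Flox, 141, 101 and 116 times in F4MKO, and 61, 49 and 61 times in F4MKO+FSTL1 livers. F4MKO livers again lay above all others, and Flox and F4MKO+FSTL1 livers overlapped. Tlr4 fell 1.65-fold in F4MKO+FSTL1 compared with F4MKO, from 4.62 ± 0.38 to 2.80 ± 0.42 CPM (log2 fold change -0.72, SE 0.19, interval -1.14 to -0.31, adjusted p = 0.0204, edgeR). This call was lost without the first F4MKO library (adjusted p = 0.0694), without the first F4MKO+FSTL1 library (adjusted p = 0.0506) and without the second one (adjusted p = 0.0878), all in edgeR's test. For F4MKO compared with Flox the log2 fold change was 0.41 (SE 0.18, interval 0.01 to 0.82, adjusted p = 0.290, edgeR), and for F4MKO+FSTL1 compared with Flox it was -0.31 (interval -0.74 to 0.11, adjusted p = 0.545, edgeR). The number of Cd14 reads per Tlr4 read was 2.04 to 2.11 in Flox, 2.53 to 2.96 in F4MKO and 1.16 to 2.07 in F4MKO+FSTL1 libraries, so that each F4MKO library exceeded all others. Over the 9 libraries the log2 levels of Cd14 and Tlr4 had a Pearson r of 0.96, and 0.86 after the group means were removed.

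**Figure D3:**
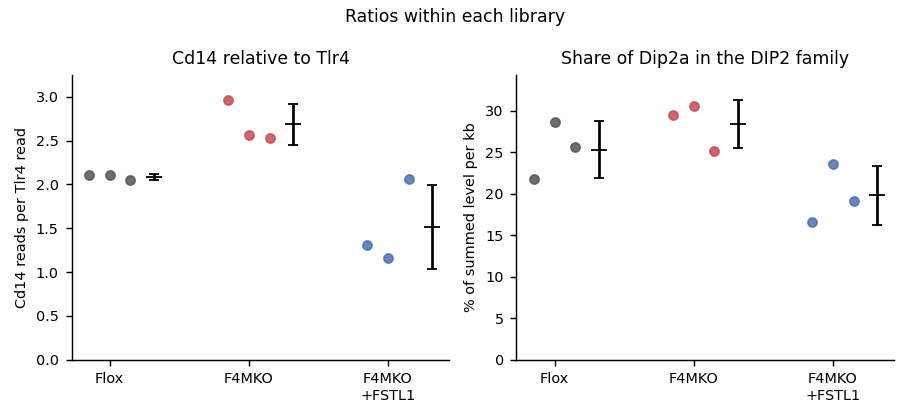
Cd14 reads per Tlr4 read (left) and the share of Dip2a in the summed level per kilobase of the longest transcripts of Dip2a, Dip2b and Dip2c (right) in each of the 9 libraries, with the mean and SD of 3 mice as black bars. Cd14 per Tlr4 lies between 2.53 and 2.96 in F4MKO, above all other libraries, and the Dip2a share overlaps between Flox and the other groups.

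The BMP receptors were nearly level across the groups. Bmpr1a counts were 732, 753 and 694 in Flox, 977, 787 and 786 in F4MKO, and 670, 691 and 595 in F4MKO+FSTL1 livers. At 31.4 ± 1.04, 33.0 ± 1.59 and 31.9 ± 1.17 CPM the groups overlapped, and the 95% interval of F4MKO+FSTL1 compared with F4MKO ran from -0.23 to 0.13 on the log2 scale, around -0.05. Bmpr2 was counted 789, 917 and 841 times in Flox, 973, 863 and 917 times in F4MKO, and 835, 785 and 782 times in F4MKO+FSTL1 livers. Each F4MKO+FSTL1 liver lay above each liver of the other groups, by a small margin: 39.2 ± 1.56 CPM against 35.7 ± 1.15 in F4MKO and 36.7 ± 1.32 in Flox. The log2 fold change from F4MKO was 0.13 (SE 0.08, interval -0.04 to 0.31, adjusted p = 0.258, edgeR), and it turned to -0.06 when libraries were scaled by their totals alone. Compared with Flox, Bmpr2 differed by 0.10 (interval -0.08 to 0.27, adjusted p = 0.691, edgeR).

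Eng reads numbered 2217, 2160 and 2352 in Flox, 2605, 2266 and 2246 in F4MKO, and 2199, 1682 and 1768 in F4MKO+FSTL1 livers. Scaled levels of 97.2 ± 8.06, 92.2 ± 2.62 and 92.0 ± 11.0 CPM overlapped. Eng differed by -0.08 between F4MKO and Flox (interval -0.31 to 0.16, adjusted p = 0.757, edgeR) and by -0.0039 between F4MKO+FSTL1 and F4MKO (interval -0.24 to 0.23, adjusted p = 0.984, edgeR). These intervals leave out changes of 1.5-fold, which is 0.58 on the log2 scale, in either direction, as do those of Bmpr1a, Bmpr2 and Dip2c in the same comparisons.

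Read over the 9 genes, F4MKO compared with Flox had 0 called by edgeR, against 39 of 14379 genes (0.271%). Before adjustment, p was under 0.05 there for 3 of the 9 (Fstl1, Cd14 and Tlr4) and for 2424 genes in all, and DESeq2 called 1, Fstl1. The groups did not overlap for the same 3, against 21.8% of all genes. For F4MKO+FSTL1 compared with F4MKO, 3 of the 9 were called, all lower, where 14.4% of all genes were called, 461 higher and 1609 lower. Unadjusted p was under 0.05 for 4 of the 9 (Fstl1, Dip2a, Tlr4 and Cd14) and for 5080 genes in all. There the groups were apart for 5 (Fstl1, Dip2a, Bmpr2, Tlr4 and Cd14), against 39.0% of all genes. F4MKO+FSTL1 compared with Flox had 0 of the 9 called by edgeR and by DESeq2, against 0.00695% of all genes in edgeR, with 2 (Fstl1 and Cd14) at an unadjusted p under 0.05, as were 1924 genes in all. The groups were apart for 2 (Fstl1 and Bmpr2), against 18.2% of all genes. Median log2 fold changes of the 9 were 0.22, -0.16 and -0.08 in the 3 comparisons, against -0.0030, 0.01 and -0.00038 over all genes tested.

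**Figure D4:**
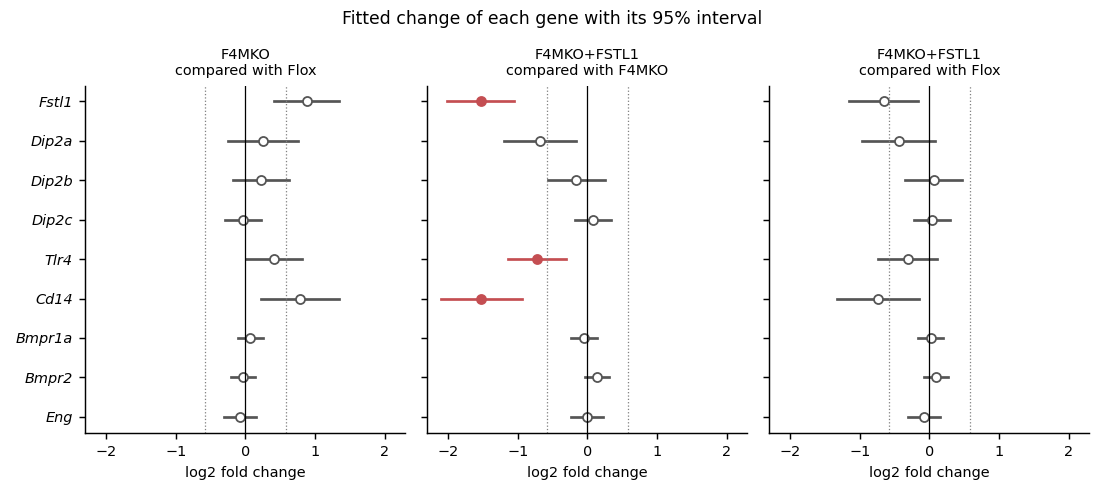
Fitted log2 fold change (points) and 95% interval (lines) of each of the 9 genes in the 3 comparisons, with filled red points for genes called and dotted lines at a 1.5-fold change. Fstl1, Cd14 and Tlr4 are the called genes, all in F4MKO+FSTL1 compared with F4MKO, at -1.53, -1.52 and -0.72.

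In whole tissue, fewer cells of a type and less RNA per cell cannot be told apart, and several marker lists were lower in F4MKO+FSTL1 than in F4MKO, as these 3 genes were. Of all genes, 11.2% were called lower in that comparison. This share stands beside the counts called lower in this paragraph and the next. Stellate cell markers, which stand for the fibroblast-like cells of the liver, summed to 573 to 633 CPM in Flox, 695 to 786 in F4MKO and 402 to 552 in F4MKO+FSTL1 livers. Between F4MKO+FSTL1 and F4MKO 6 of 12 of them were called lower, led by Col1a1 (log2 fold change -2.25), Lox (-2.16) and Col3a1 (-1.98), which encode 2 fibrillar collagen chains and a collagen cross-linking enzyme, and 7 of 12 without the first F4MKO+FSTL1 library. Lox had only 16, 8 and 9 reads in the F4MKO+FSTL1 libraries. Kupffer cell and macrophage markers summed to 632 to 999, 711 to 809 and 374 to 601 CPM, and 6 of 10 were called lower in the same comparison, led by Cd68 (-1.10), Cd5l (-1.02) and Adgre1 (-0.96). The remaining 4, all markers of resident Kupffer cells, were not called (Timd4 0.51, Marco 0.08, Clec4f -0.29 and Vsig4 -0.41). Without the first F4MKO+FSTL1 library, 4 of 10 were called lower, and Cd5l had an edgeR adjusted p of 0.0760. Markers of recruited and lipid-associated macrophages summed to 63.7 to 83.5, 105 to 180 and 38.3 to 53.7 CPM, with 6 of 6 called lower, led by Gpnmb (-2.65), Trem2 (-2.44) and Itgax (-2.12), and 5 of 6 without that library. Of these, Gpnmb was also called higher in F4MKO than in Flox (1.70). Trem2 had only 10, 19 and 10 reads in the F4MKO+FSTL1 libraries. Between F4MKO and Flox, where Fstl1, Cd14 and Tlr4 had higher values in F4MKO, the mean sums gave ratios of 2.0 for recruited macrophage, 1.26 for stellate cell and 0.996 for Kupffer cell and macrophage markers. Marco (log2 fold change -1.41) and Timd4 (-1.26) had lower values in F4MKO there, and were not called. None of these 3 lists had a marker at 0 in any library, and their part in the results for Fstl1, Cd14 and Tlr4 was not tested.

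Endothelial markers, which stand for the cells that carry most endoglin, summed to 326 to 409, 257 to 337 and 298 to 358 CPM, and 0 of 10 were called in any comparison, with 1, 2 and 0 at an unadjusted p under 0.05. Cholangiocyte markers summed to 8.52 to 12.2, 17.1 to 32.3 and 6.25 to 10.1 CPM. Of the 4, Epcam was called higher in F4MKO than in Flox (log2 fold change 2.01), and Epcam (-2.58), Krt7 (-1.93) and Krt19 (-1.87) were called lower in F4MKO+FSTL1 than in F4MKO. Neutrophil markers gave 8.39 to 9.36, 10.8 to 15.7 and 5.09 to 8.10 CPM, with Csf3r (-1.03) the 1 of 4 tested that was called, in F4MKO+FSTL1 compared with F4MKO. Lymphocyte markers, at 4.30 to 13.3 CPM over all libraries, had 0 of 6 called by edgeR in any comparison, with 0, 1 and 3 at an unadjusted p under 0.05. Hepatocyte markers summed to 66138 CPM in the first F4MKO library and to 83101 to 102777 in the other 8, and Cyp2e1 (1.13) was the 1 of 8 called, higher in F4MKO+FSTL1 than in F4MKO.

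**Figure D5:**
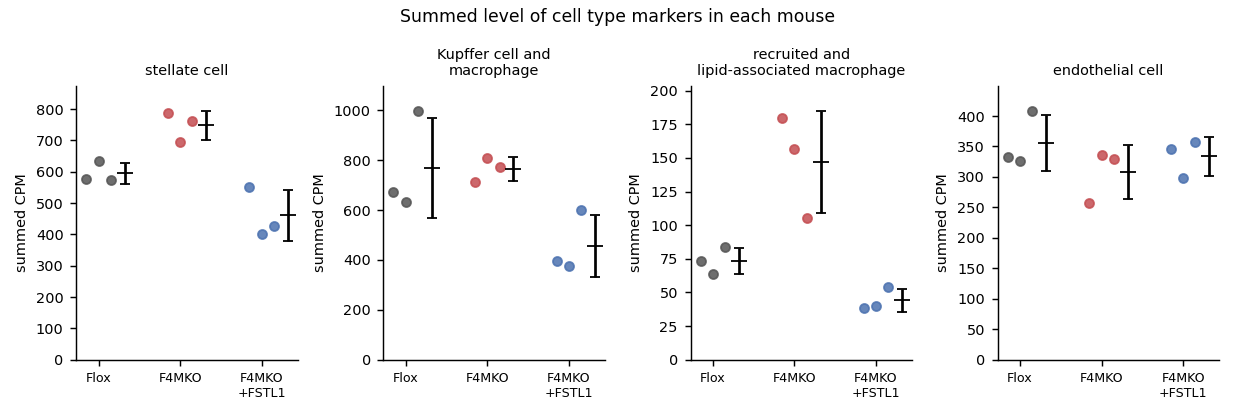
Summed CPM of the markers of stellate cells, Kupffer cells and macrophages, recruited and lipid-associated macrophages, and endothelial cells in each mouse (points), with the mean and SD of 3 mice as black bars and axes starting at 0. The 3 F4MKO+FSTL1 mice lie below the 3 F4MKO mice in the first 3 panels, and the endothelial sums overlap.

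Likeness over the 9 libraries was measured by Pearson's r of log2 CPM, as a description in which group differences and shared scaling both enter. Fstl1 was closest to Igfbp7 (r = 0.99), Cpxm1 (0.99) and Pamr1 (0.99), of which Igfbp7 encodes a secreted binding protein of insulin-like growth factors. The genes closest to Dip2a were Senp1 (0.95), Herc3 (0.94) and Spire1 (0.94), less close than those of the other 3 genes examined. For Cd14 they were Sele (0.99), Rgs19 (0.99) and Mcm2 (0.99), encoding the endothelial adhesion molecule E-selectin, a regulator of G-protein signalling and a replication licensing factor. For Tlr4 they were Slc25a36 (0.98), Arl11 (0.98) and Gnai2 (0.98). Between Fstl1 and Dip2a r was 0.66 over the 9 libraries and 0.0018 after the group means were removed, whereas Fstl1 had r of 0.89 with Cd14 and 0.87 with Tlr4, which were 0.39 and 0.33 without the group means.

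The genes listed around TLR4 and CD14 encode parts of that receptor, its adaptors, regulators and related Toll-like receptors. Ly96, the subunit of the receptor that holds lipopolysaccharide, was level, with a log2 fold change of 0.05 (adjusted p = 0.860, edgeR) in F4MKO+FSTL1 compared with F4MKO and levels of 5.20 ± 0.92 and 5.39 ± 0.16 CPM. Lbp, the plasma protein that delivers lipopolysaccharide to CD14, differed by -0.24 (adjusted p = 0.241, edgeR), and the adaptor Myd88 by -0.03 (adjusted p = 0.902, edgeR). Of 17 genes of this list tested, 7 were called lower and 0 higher in that comparison, in which 11.2% of all genes were called lower. The list median was -0.23 against 0.01 for all genes. The largest values were those of the adaptor Ticam2 (-1.61), Tlr1 (-1.26), which pairs with TLR2, and Cd180 (-1.18), a TLR4-like surface protein. Ticam2 had only 7, 2 and 9 reads in the F4MKO+FSTL1 libraries. Ly86, Irak3, Tlr2 and Tlr6 were the remaining 4, named after their values were seen. Ly96, Lbp, Myd88, Tirap, Ticam1, Irak1, Irak2, Irak4, Traf6 and Tollip were not called. Without the first F4MKO+FSTL1 library 5 of 17 were called lower, and Ticam2 (adjusted p = 0.0628) and Irak3 (adjusted p = 0.0538) were not, in edgeR. In F4MKO compared with Flox, and in F4MKO+FSTL1 compared with Flox, 0 of 17 were called by edgeR, with 3 and 5 at an unadjusted p under 0.05.

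Genes that NF-kB, the transcription factor downstream of TLR4, is known to induce had 4 of 11 tested called lower and 0 higher in F4MKO+FSTL1 compared with F4MKO, with a median of -0.64, against 11.2% of all genes called lower and a median of 0.01. They were the chemokine gene Ccl2 (log2 fold change -1.77), Lcn2 (-1.46), the adhesion molecule gene Icam1 (-1.12) and, outside the naming rule, Tnfaip3 (-1.01). Il1b, Cxcl1, Cxcl2, Cxcl10, Nfkbia, Saa1 and Saa2 were not called. Values were lower for 9 of the 11 and higher for 2, Cxcl1 (0.33) and Nfkbia (0.016). Il6 and Ptgs2 had too few reads to be tested. In each of the other comparisons 0 of 11 were called by edgeR, with 1 and 3 at an unadjusted p under 0.05.

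The other receptors that the study screened with these were mostly low or level. Bmpr1b, a second type I BMP receptor, had 1 read in all 9 libraries together, and Alk had 3, so neither was tested. Of the 4 tested, 0 were called by edgeR in any comparison, with 2, 1 and 1 at an unadjusted p under 0.05. Tgfbr2, the type II TGF-β receptor, differed by -0.48 between F4MKO+FSTL1 and F4MKO with an adjusted p of 0.0220 (edgeR) but below the 1.5-fold threshold. Its levels were 38.3 ± 2.61 CPM in Flox, 50.9 ± 3.65 in F4MKO and 36.6 ± 6.59 in F4MKO+FSTL1. Each F4MKO liver lay above each liver of the other groups. In the same comparison Tgfbr1 differed by -0.27 (adjusted p = 0.165, edgeR), the co-receptor Tgfbr3 by -0.20 (adjusted p = 0.470, edgeR) and the Wnt receptor Fzd4 by 0.27 (adjusted p = 0.296, edgeR).

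The lists of BMP pathway genes differed in how many were called. The list of BMP ligands also holds Bmp1, which encodes a procollagen protease and not a ligand. Of its 7 genes tested 0 were called in any comparison by edgeR. Before adjustment, p was under 0.05 for 1 in F4MKO compared with Flox and for 2 between F4MKO+FSTL1 and Flox. Between F4MKO+FSTL1 and F4MKO it was under 0.05 for 5, among them Bmp1 (unadjusted p = 0.0214, edgeR). In that comparison 5080 of 14379 genes had an unadjusted p under 0.05. Without the first F4MKO+FSTL1 library 1 of 8 genes of that list was called lower, Bmp5, between F4MKO+FSTL1 and F4MKO. Between F4MKO+FSTL1 and F4MKO, Bmp2 differed by 0.43 (adjusted p = 0.0563, edgeR), Bmp6, the main inducer of hepcidin, by 0.16 (adjusted p = 0.575, edgeR), and Gdf2, which encodes BMP9, by -0.42 (adjusted p = 0.0261, edgeR), under the fold threshold. Other BMP and activin receptors and co-receptors had 3 of 11 called there, against 14.4% of all genes. Acvr2b (0.71) was higher, and the endothelial receptor Acvrl1 (-0.71) and the co-receptor Rgma (-1.23) were lower. In the other comparisons 0 of 11 were called, with 3 and 1 at an unadjusted p under 0.05. Rgma was not called without the first F4MKO+FSTL1 library (adjusted p = 0.113, edgeR). It had only 6, 10 and 8 reads in the F4MKO+FSTL1 libraries. Of the 8 SMAD-related genes 0 were called in any comparison, with 0 at an unadjusted p under 0.05. Of the 10 BMP target genes 0 were called in any comparison, with 0, 1 and 0 at an unadjusted p under 0.05. Between F4MKO+FSTL1 and F4MKO, the target genes Id1 (-0.65, adjusted p = 0.119), Id3 (-0.41, adjusted p = 0.237), Smad7 (-0.33, adjusted p = 0.230) and Hamp, which encodes hepcidin (0.56, adjusted p = 0.398), did not pass in edgeR.

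Fstl1's structural relatives were in part lower where Fstl1 was. Sparc, a matricellular protein gene with the same kind of domain, fell in F4MKO+FSTL1 compared with F4MKO from 107 ± 12.7 to 55.3 ± 8.21 CPM (log2 fold change -0.95, SE 0.13, adjusted p = 0.00140, edgeR). Smoc2 (-1.16) and Sparcl1 (-1.03) were called lower as well, so that 3 of the 6 relatives tested were called lower, against 11.2% of all genes. Their median was -0.99 against 0.01 for all genes. Of the 6, 5 had lower values and 1, Smoc1, a higher one. Smoc1 stood at 130 ± 10.6 CPM in F4MKO+FSTL1 and 104 ± 9.72 in F4MKO, and was not called. In each of the other comparisons 0 of 6 were called, and 3 and 3 had an unadjusted p under 0.05. Fst, encoding follistatin, which binds activins, differed by -1.23 (SE 0.52, adjusted p = 0.117, edgeR). Fstl3 had 0 to 13 reads per library and was not tested.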

How the data were processed

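The authors sequenced 150-base paired-end reads, trimmed them with Trim Galore 0.6.7, aligned them to mm10 with HISAT2 2.2.1 and counted them on genes with featureCounts 2.0.1, and they deposited raw counts for 9 libraries. The use of strand, the annotation and the handling of reads shared by several genes are not given in the sources used here. All count columns belonged to these libraries, and 0 others were present. Genes were kept by edgeR 4.0.16 (R 4.3.3) at a minimum count of 10 and a minimum total of 15, scaled by TMM (factors 0.927 to 1.17) and tested with 1 mean for each group in a single quasi-likelihood fit. P-values were adjusted by Benjamini-Hochberg over 14379 genes. Log2 CPM used a prior count of 2. Nothing in the labels says more than that the replicates are separate samples, and the study states that they are mice. On simulated data of F4MKO compared with Flox with 14151 genes tested, the fit recovered 96.8% of 4-fold and 71.6% of 2-fold changes and called 13 of 13954 unchanged genes. Transcript lengths came from GENCODE vM21 and promoters from RefSeq. Members, lists and the naming rule were chosen with earlier results of these data known. The rule names the 9 genes, up to 3 called genes with the largest change per list and comparison, 20 fixed genes of the pathways, and the 3 most alike genes for Fstl1, Dip2a, Cd14 and Tlr4. Alternatives were DESeq2 1.42.0, its size factors in edgeR, no scaling beyond totals, no filter, only the libraries compared, the replicate block, no fold threshold, the median transcript length, and each library left out in turn. One list of secreted antagonists is not reported here.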

Additional observations from a re-analysis of the deposited data

How the results depend on the processing

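With 67 to 456 reads per library for Fstl1 and 49 to 417 for Tlr4 and Cd14, and 3 mice a group, the depth limits how small a change of these genes could be called. The calls for Fstl1 and Cd14 in F4MKO+FSTL1 compared with F4MKO held under every alternative run. Apart from leaving out libraries, 143 of 162 values kept their direction and side of the threshold, 8 passed it newly and 11 reversed.

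For F4MKO compared with Flox, genes called numbered 39, and 59 without scaling beyond the library total, 478 without the filter, 338 with DESeq2, 11 with the 6 libraries compared and 134 with the replicate block. Of the 9 genes, 2 were called without the filter (Fstl1, adjusted p = 0.00730, and Cd14, adjusted p = 0.0327, edgeR) and 1 with DESeq2. For F4MKO+FSTL1 compared with Flox, genes called numbered 1, and 2 with DESeq2's size factors, 2 without scaling beyond the library total, 379 without the filter, 284 with DESeq2, 0 with the 6 libraries compared and 15 with the replicate block. In F4MKO+FSTL1 compared with F4MKO, Dip2a was called in 5 alternatives besides leave-one-out: no scaling beyond the library total, no filter, DESeq2, the 6 libraries compared and the replicate block. The cause of these changes was not tested.

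Same-numbered libraries come from different mice and were not taken as pairs. Correlations of their deviations from group means ran from -0.10 to 0.30. The replicate block gave 2170 genes in F4MKO+FSTL1 compared with F4MKO against 2070, and Dip2a an adjusted p of 0.0403 (edgeR). In both comparisons with F4MKO, each library correlated best with its own number, and in F4MKO+FSTL1 compared with Flox 1 of 3 did. Replicate 3 of each group stood high on the second principal component (12.7% of variance), at 20.1, 16.8 and 24.2. The other 6 reached at most 2.40. A replicate effect was not tested.

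Scaling by library totals alone moved the median of all genes by 0.12, -0.20 and -0.08 in the 3 comparisons, and the split of calls in F4MKO+FSTL1 compared with F4MKO to 215 higher and 2282 lower, in F4MKO compared with Flox to 53 and 6 from 29 and 10. Log2 fold changes near 0 reversed with it. In F4MKO compared with Flox they became 0.080 for Dip2c, 0.075 for Bmpr2 and 0.042 for Eng. In F4MKO+FSTL1 compared with F4MKO they became -0.12 for Dip2c and -0.060 for Bmpr2. In F4MKO+FSTL1 compared with Flox they became -0.024 for Dip2b, -0.036 for Dip2c and -0.058 for Bmpr1a. For Eng in F4MKO+FSTL1 compared with F4MKO, DESeq2's size factors gave 0.0044, no filter 0.0035 and DESeq2 0.012.

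Leaving out 1 library at a time, genes called ranged from 0 to 100 in F4MKO compared with Flox, from 1295 to 2216 in F4MKO+FSTL1 compared with F4MKO and from 0 to 101 in F4MKO+FSTL1 compared with Flox. In the first, none were called without any 1 Flox library or the first F4MKO library, 100 without the third F4MKO library, and 24, 23 and 19 without each F4MKO+FSTL1 library. In the second, 1335 were called without the first F4MKO and 1295 without the second F4MKO+FSTL1 library, and in the last, 101 without the third F4MKO+FSTL1 library and at most 15 without any other. Counts over the gene lists without the first F4MKO+FSTL1 library were chosen after seeing the data. Of the 9 genes, 0, 2 to 4 and 0 to 1 were called. Log2 fold changes that turned ranged from -0.13 to 0.023 for Dip2c in F4MKO compared with Flox and from -0.087 to 0.085 for Eng in F4MKO+FSTL1 compared with F4MKO. In F4MKO+FSTL1 compared with Flox they ranged from -0.0092 to 0.050 for Bmpr1a, from -0.085 to 0.19 for Dip2b, from -0.045 to 0.11 for Dip2c and from -0.17 to 0.0064 for Eng.

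With the median transcript length, Flox levels were 49.2 CPM per kb for Eng, 23.3 for Bmpr1a, 10.7 for Fstl1, 7.77 for Bmpr2, 7.57 for Dip2b, 5.77 for Cd14, 2.77 for Tlr4, 2.39 for Dip2c and 1.37 for Dip2a. In F4MKO they were 46.6 for Eng, 24.5 for Bmpr1a, 19.7 for Fstl1, 9.92 for Cd14, 8.83 for Dip2b, 7.57 for Bmpr2, 3.67 for Tlr4, 2.33 for Dip2c and 1.63 for Dip2a. In F4MKO+FSTL1 they were 46.5 for Eng, 23.7 for Bmpr1a, 8.31 for Bmpr2, 7.91 for Dip2b, 6.80 for Fstl1, 3.47 for Cd14, 2.46 for Dip2c, 2.23 for Tlr4 and 1.02 for Dip2a.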

Other observations

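Follistatin (Fst) had an uneven level in Flox livers, at 15.3 CPM in the first and at 4.88 and 3.86 CPM in the others, against 4.55 to 6.76 in F4MKO and 1.17 to 3.70 in F4MKO+FSTL1. Hepcidin (Hamp) ranged from 610 to 1514 CPM in Flox, from 658 to 1456 in F4MKO and from 956 to 2593 in F4MKO+FSTL1 livers, with replicate 3 highest in each group. After the group means were removed, the log2 levels of the type I and type II receptors Bmpr1a and Bmpr2 had a Pearson r of -0.91 over the 9 libraries, beside -0.68 with the group means in place. Of all pairs among the 9 genes, this one had the largest absolute r without the group means. Scaling to one total enters both levels, and r is given as a description.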
